A study of Mus musculus with 2 samples.

Results

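The genes described here are 7 large mucin genes of the mouse (Muc19, Muc2, Muc5ac, Muc5b, Muc6, Muc4 and Muc16), 7 of 55413 annotated genes on chromosomes 1 to 19, X and Y. They were taken by name from GENCODE vM21 (GRCm38, the assembly called mm10), and the family was chosen by its H1t peaks in this library, so every peak count below is a description and has no test. Chromatin of spermatogenic cells, isolated from testes of ICR mice aged 6 weeks, was immunoprecipitated with a rabbit antibody raised in the submitters' laboratory against the linker histone H1t. The series holds 2 libraries, this immunoprecipitate and an input made without antibody. Only the peak list of the immunoprecipitate was analysed, so no value has a replicate, read depth is unknown and no interval is given. No RNA was measured in these files, so the labelled cell type could not be checked against marker genes. The list holds 76546 peaks with a median width of 700 bp. Each carries the authors' own score, which runs from 50 to 3100 with a median of 74.04.

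Mucins are very long glycoproteins of epithelial surfaces. In many of them the central region is encoded by 1 or a few long exons of tandem repeats. These are rich in serine, threonine and proline codons, and sugar chains are attached there to serine and threonine. The gel-forming mucins (Muc2, Muc5ac, Muc5b, Muc6 and Muc19) are secreted, and cysteine-rich domains related to von Willebrand factor join them into polymers. Muc4 and Muc16 are anchored in the cell membrane. Linker histones bind nucleosomes and the DNA between them, and H1t is the variant made in the male germ line from meiosis onward.

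Repeated stretches are shown first because the strongest signal in the family lay on a repeat-bearing exon. The first sequence below is the stretch of 300 bases that recurs most often without change in the large exon of Muc19, with 6 exact copies (first copy at chr15:91906850-91907149, plus strand). The others are, for each remaining gene with a repeat-bearing coding exon, the 60 bases with the most exact copies in it. These stretches were picked by copy number alone, so they need not be units of the serine, threonine and proline repeats. They lie at chr7:141808654-141808713 in Muc5ac (11 copies), chr7:141858017-141858076 in Muc5b (5 copies), chr7:141639766-141639825 on the minus strand in Muc6 (2 copies), chr16:32751957-32752016 in Muc4 (2 copies) and chr9:18642015-18642074 on the minus strand in Muc16 (2 copies). All were read from the GENCODE transcript sequences, 5′ to 3′ along the gene, and capitals mark CpG dinucleotides. The Muc19 stretch holds 7 CpG and has a GC content of 64.0%, while the 60 bases of Muc16 hold 0 and have 38.3%.
Muc19: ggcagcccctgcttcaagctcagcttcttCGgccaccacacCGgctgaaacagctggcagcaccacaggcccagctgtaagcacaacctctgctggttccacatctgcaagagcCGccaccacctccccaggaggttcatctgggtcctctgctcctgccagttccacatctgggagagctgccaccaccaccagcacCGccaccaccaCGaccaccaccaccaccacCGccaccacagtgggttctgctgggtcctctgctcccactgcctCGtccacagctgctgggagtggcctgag
Muc5ac: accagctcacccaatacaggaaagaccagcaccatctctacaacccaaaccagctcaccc
Muc5b: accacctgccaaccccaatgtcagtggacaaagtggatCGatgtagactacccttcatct
Muc6: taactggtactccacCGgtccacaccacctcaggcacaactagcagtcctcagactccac
Muc4: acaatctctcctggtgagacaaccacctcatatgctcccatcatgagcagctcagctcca
Muc16: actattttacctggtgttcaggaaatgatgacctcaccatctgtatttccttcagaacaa

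Over the 7 genes most peaks had low scores, and 1 over Muc19 was among the highest of the list. The genes span 472 kb in all, and 15 peaks overlapped them by at least 1 bp, covering 12.9 kb or 2.73% of their length. Every gene had at least 1 peak. Over all 21938 coding genes 48.6% had one, and over the 9631 coding genes at least as long as Muc6, the shortest member, 69.7% had one. Of the 15 peaks, 14 had scores between 50.48 and 148.98 (median 56.91) and 11 of these lay below the median of the whole list. The other 3, all in Muc16, had 78.59, 89.46 and 148.98. The fifteenth, over the large exon of Muc19, had a score of 2703.91. Of the 15, 7 touched an exon and 8 lay wholly in introns, and 7 of those 8 were in Muc16.

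**Figure D1:**
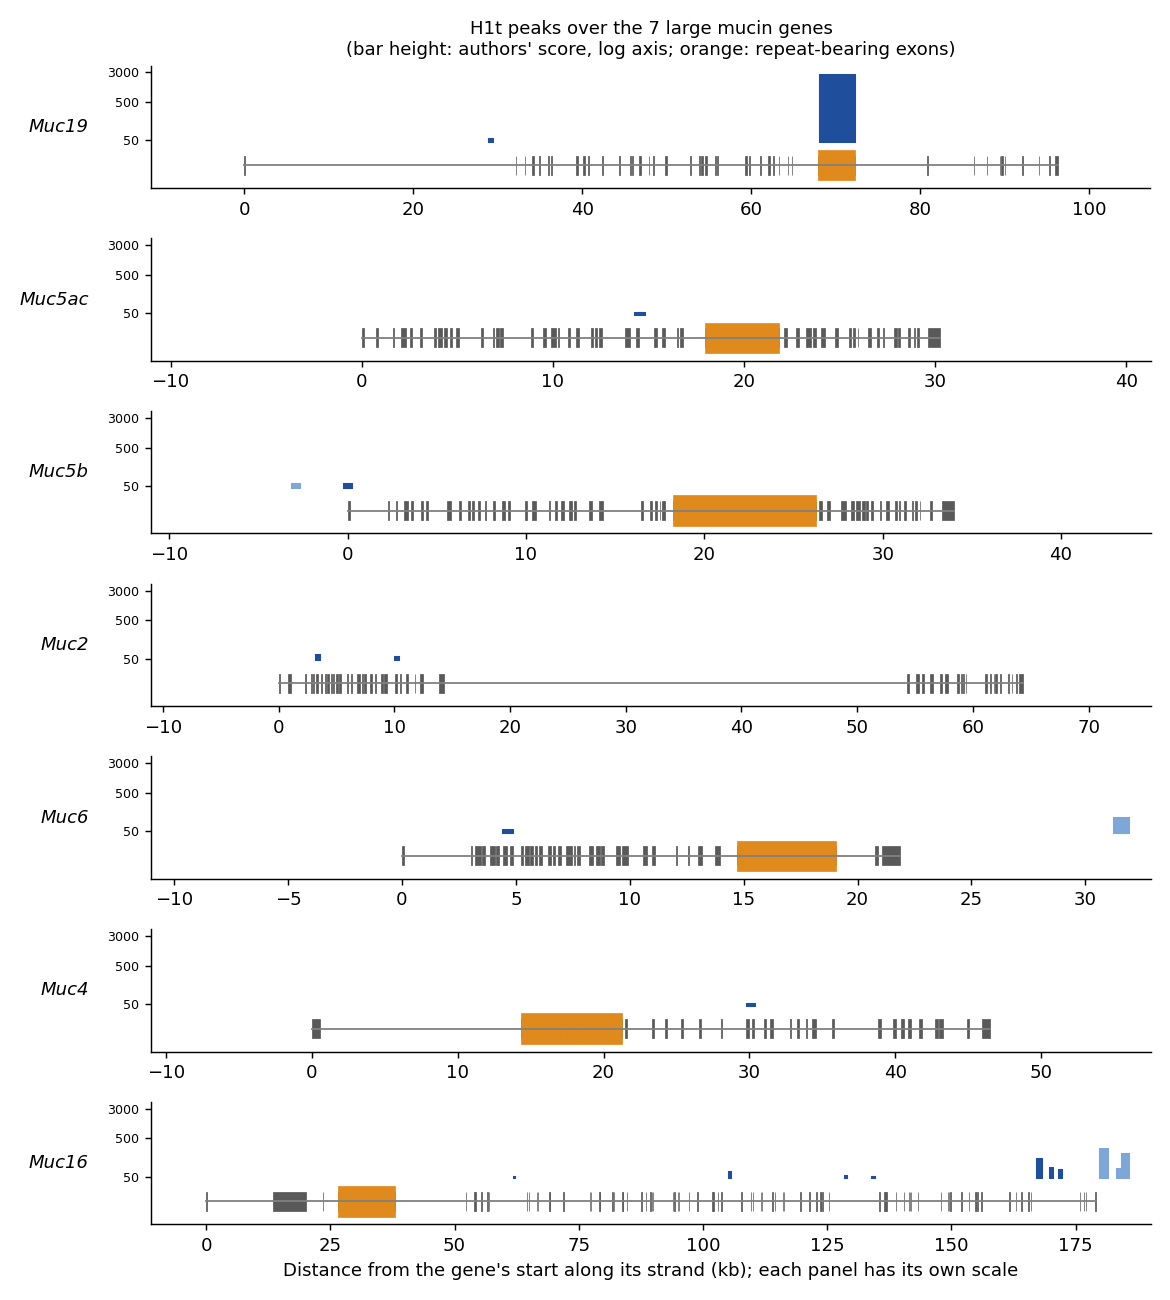
Maps of the 7 genes, drawn along their own strand from the annotated start (x axis, kb, a separate scale for each gene); grey boxes are exons, orange boxes are repeat-bearing exons, and bars are H1t peaks in the gene (dark blue) or its 10-kb flanks (pale blue) whose height is the authors' score on a log axis. The bar over the orange exon of Muc19 has a score of 2703.91, and no bar stands over the orange exons of the other genes.

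Muc19, which encodes a gel-forming mucin of the salivary glands, carried 2 peaks in its 96.2 kb (chr15:91838326-91934555). The large peak ran from chr15:91906319 to 91910633, 4315 bp wide, over the exon at chr15:91906237-91910542. It began 82 bp after the start of the 4306 bp exon, ended 91 bp after its end and covered 98.1% of it. Its score was the seventh in the list: the 6 peaks above it were all at the maximum of 3100. By width it stood at rank 61 of 76546.

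The exon under that peak is a tandem array. Its sequence matched itself best at a shift of 489 bp, which is 163 codons with remainder 0, and 84.7% of bases were identical at that shift. The array ran over 4033 bp, or 8.25 copies, from chr15:91906412 to 91910444, so the peak began 93 bp before it and ended 189 bp after it. GC content of the exon was 61.7%, with 107 CpG dinucleotides or 2.48 per 100 bp. Of its 12-mers 89.0% occurred more than once in the exon. Of its 36-mers 81.6% did, and 0 of the 1276 distinct 36-mers occurred in the annotated transcripts of any other gene on these chromosomes. How reads with several matching positions were treated is not given in the sources used here, and the part of repeat copies in the score was not tested. GENCODE marks this locus as a reference genome error and annotates its 4 transcripts without a coding sequence, so Muc19 is absent from the coding counts below. One of these transcripts starts at chr15:91908911, inside the peak.

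The other peak of Muc19, 505 bp wide with a score of 57.33, lay in an intron at chr15:91867191-91867695, 29.1 kb from the start. Exons were 46.4% covered, introns 0.684% and the flanks, taken as 10 kb on each side, 0%. The values for introns and flanks were near the medians over coding genes at least as long as Muc6, which were 0.876% and 0. Of its 43 exon blocks, meaning stretches of overlapping exons merged over transcripts, only the array exon was under a peak. Another 3 blocks had a GC content of 60% or more, but they were only 30 to 32 bp long and had no peak. Smgc, a gene for a salivary gland protein that starts 61 bp from Muc19 and overlaps it, had 0 peaks in its 23.2 kb. Set against 14163 coding genes no shorter than 10 kb, the covered shares of exons, introns and flanks came closest to those of Muc19 in Ubtd1 (45.2%, 0.983% and 1.07%, at a distance of 1.65 percentage points), whose highest score was 99.18.

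None of the repeat-bearing coding exons of the other genes had a peak. A block of coding sequence was taken as repeat-bearing when it had at least 500 bp and at least 20% of its 12-mers occurred more than once in it. This gave 7 blocks with 34.7 kb in all, and 0 of 7 had a peak. The Muc4 blocks among them lie in a single exon block of 6931 bp, so the 7 are not all separate exons. Over all coding genes 18.5% of 319 such blocks had one, and so did 20.3% of 9278 other coding blocks of 500 bp or more. Counted over exons of all gene types, 18.3% of 530 repeat-bearing blocks had a peak, and the score over Muc19 was the highest of them. Muc2 has no such block: the annotation calls its locus fragmented and holds no exon in the 40000 bp from chr7:141704612 to 141744611, where 0 peaks lay. The genome sequence of that stretch was not read here, so it is not known whether reads could be placed in it, and the 0 is no measurement of H1t.

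The mucin blocks without a peak were long and had lower GC content than the Muc19 array. The block of Muc5b, an airway mucin gene, was 8019 bp long (chr7:141857307-141865325) with a GC content of 53.1% and 1.28 CpG per 100 bp, and its nearest peak was 17979 bp away. That of Muc5ac, the mucin of the stomach surface and airway goblet cells, was 3864 bp long (chr7:141806948-141810811) with 53.1% and 0.932 CpG per 100 bp. Its best shift was 48 bp and 71.3% of its 12-mers were repeated, so it came second to Muc19 in repeated sequence. In Muc6, a mucin of the stomach glands, the block was 4329 bp long (chr7:141636283-141640611) with 51.0% GC. The 3 blocks of Muc4, separated in the annotation by gaps of 2 bp between chr16:32750194 and 32757124, had 46.7%, 48.4% and 48.2%. Muc16, which encodes the protein that carries the CA-125 antigen, had the longest block with 11544 bp (chr9:18636512-18648055) and the lowest GC content with 42.3%. Of its 12-mers only 25.4% were repeated, and 41.9% of bases were identical at its best shift. Coding blocks of 173, 125, 68 and 36 bp recur along Muc16. They are shorter than the 500 bp of the rule, so repeats spread over them were not read.

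Over all coding genes, with the 7 mucin blocks included, 47 repeat-bearing coding blocks had a GC content between 42.3% and 53.1%, the range of the mucin blocks, and 6.38% of them had a peak. Among repeat-bearing exon blocks of all gene types with at least 60% GC, the class of the Muc19 array, 64.6% of 48 had one. The share of repeat-bearing coding blocks with a peak went from 0 of 175 under 45% GC to 15.4% of 26 between 50% and 55% and 66.1% of 62 at 60% or more. For other coding blocks of 500 bp or more it went from 0.141% of 2126 under 45% to 8.48% of 1687 between 50% and 55% and 59.8% of 1904 at 60% or more. Of 29 repeat-bearing exon blocks of at least 4000 bp, 10 had a peak and 1, that of Muc19, was covered to 90% or more. The input was not analysed here, so the background in sequence of high GC content was not measured.

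**Figure D2:**
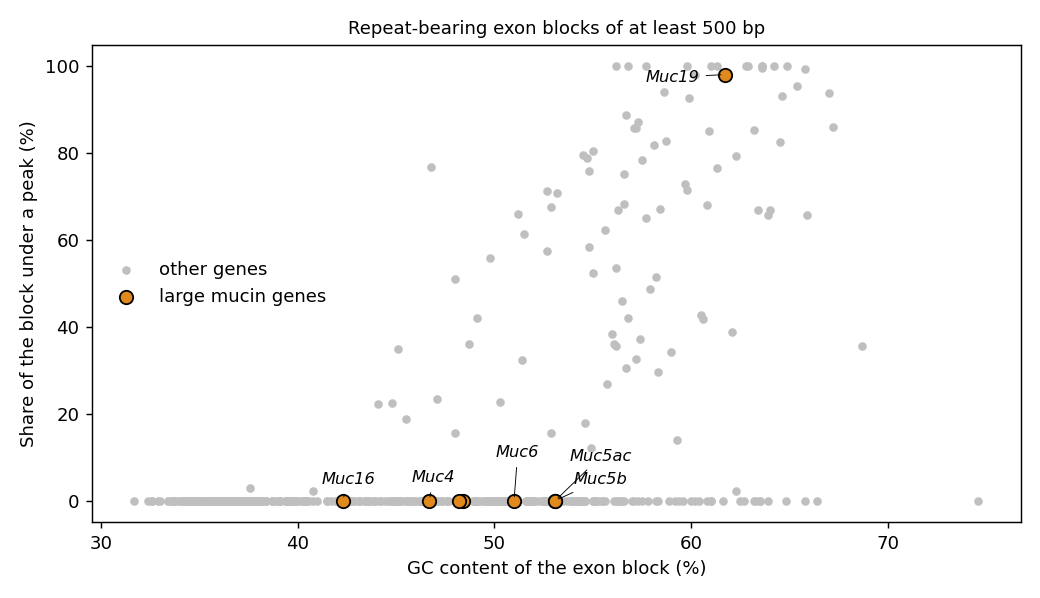
Each point is a repeat-bearing exon block, merged over transcripts, of at least 500 bp (grey, other genes; orange, large mucin genes, with coding blocks for genes that have them); the x axis is its GC content in percent and the y axis the share of its bases under a peak in percent. Muc19 lies at 61.7% GC and 98.1% cover, and the other mucin blocks lie at 0% cover between 42.3% and 53.1% GC.

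Away from the repeats, peaks in the 4 other gel-forming genes overlapped short coding exons. These genes form a cluster on chromosome 7, in the order Muc6, Muc2, Muc5ac and Muc5b, over 240 kb (chr7:141633456-141873084). The cluster held 6 peaks with scores from 52.05 to 67.4 and was covered to 1.24%. Of these peaks 5 overlapped a gene and 1 lay between Muc5ac and Muc5b. Covered shares of the gene bodies were 2.35% for Muc6, 1.84% for Muc5ac, 1.36% for Muc2 and 0.761% for Muc5b, beside a median of 1.25% over coding genes at least as long as Muc6.

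Muc2, the main mucin of the intestine, had 2 peaks, both over single coding blocks in the 5′ part of the gene. One (chr7:141693456-141693932, score 67.4) covered block 6 of 47, counted along the gene, and the other (chr7:141700336-141700730, score 56.46) covered block 23. Coding sequence of Muc2 was 5.30% covered, the highest of the 6 genes with coding sequence. In Muc6 the peak at chr7:141650429-141650941 (score 56.48) covered blocks 7 and 8 of 33. The single peak of Muc5ac (chr7:141803217-141803773, score 52.05) covered block 26 of 49. Each of these peaks covered the blocks it touched in full. Exons made up 64.5% of the bases of the Muc6 peak, 44.2% and 39.7% of the 2 Muc2 peaks and 28.2% of the Muc5ac peak. The other bases of these peaks were intronic, and their GC content was not read.

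The exons under these peaks were partly counterparts of each other. Block 23 of Muc2 and block 26 of Muc5ac both have 157 bp, and so do the best matching blocks of Muc5b (26 of 49), Muc6 (25 of 33) and Muc19 (26 of 43). Aligned without gaps, 66 of the 157 positions (42.0%) are identical in all 5 genes, and these are in capitals below. The lines show which counterparts were under a peak and which were not.
Muc2 (chr7:141700417-141700573, plus strand, peak): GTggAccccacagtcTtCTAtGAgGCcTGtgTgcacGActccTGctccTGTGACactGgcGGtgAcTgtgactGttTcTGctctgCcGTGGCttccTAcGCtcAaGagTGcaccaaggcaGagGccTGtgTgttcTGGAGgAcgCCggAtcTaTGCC
Muc5ac (chr7:141803312-141803468, plus strand, peak): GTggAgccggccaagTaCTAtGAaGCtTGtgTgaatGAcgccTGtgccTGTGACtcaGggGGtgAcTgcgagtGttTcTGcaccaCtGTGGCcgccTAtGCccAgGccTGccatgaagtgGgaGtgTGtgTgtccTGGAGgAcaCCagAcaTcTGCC
Muc5b (chr7:141855496-141855652, plus strand, no peak): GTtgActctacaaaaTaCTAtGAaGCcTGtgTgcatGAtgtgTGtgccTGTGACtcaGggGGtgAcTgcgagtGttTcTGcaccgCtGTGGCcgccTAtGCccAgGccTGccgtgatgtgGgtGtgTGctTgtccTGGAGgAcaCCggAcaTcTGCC
Muc6 (chr7:141644575-141644731, minus strand, no peak): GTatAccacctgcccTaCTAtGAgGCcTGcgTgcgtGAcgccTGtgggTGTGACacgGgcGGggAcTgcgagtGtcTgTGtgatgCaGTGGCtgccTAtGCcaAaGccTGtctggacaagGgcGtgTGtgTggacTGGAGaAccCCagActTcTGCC
Muc19 (chr15:91898034-91898190, plus strand, no peak): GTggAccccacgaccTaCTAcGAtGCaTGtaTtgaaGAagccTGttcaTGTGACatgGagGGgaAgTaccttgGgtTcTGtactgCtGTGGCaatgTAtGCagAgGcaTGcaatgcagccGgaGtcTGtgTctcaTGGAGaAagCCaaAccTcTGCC

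The Muc5ac and Muc5b blocks are identical at 138 of 157 positions (87.9%), with GC contents of 59.2% and 57.3%, and only the first was under a peak. Muc6, with 61.1% GC and 7 CpG in its block, had none there, while Muc2, with 59.2% and 6 CpG, had one. The Muc19 block has 52.2% GC and 3 CpG. The Muc5ac peak at 52.05 lay just above the lowest score in the list, which is 50, and 7.15% of all peaks scored lower.

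Among other counterparts, block 6 of Muc2 (211 bp) and block 7 of Muc6 (208 bp) were both under a peak and identical at 62.6% of the longer length. Block 6 of Muc2 had the highest GC content of any coding block of that gene (67.8%) and 21 CpG dinucleotides, 9.95 per 100 bp. Block 7 of Muc6 had 61.5% and 7 CpG. Matching blocks of Muc5ac (60.7%, 8 CpG) and Muc5b (59.4%, 7 CpG) had no peak. The Muc5b block was as close to block 6 of Muc2, with 62.6% identity, and the Muc5ac block had 59.8%. The best match in Muc19 had 53.7% identity and no peak. The sequences below, with CpG in capitals, show the difference in CpG number.
Muc2 block 6 (chr7:141693566-141693776, plus strand): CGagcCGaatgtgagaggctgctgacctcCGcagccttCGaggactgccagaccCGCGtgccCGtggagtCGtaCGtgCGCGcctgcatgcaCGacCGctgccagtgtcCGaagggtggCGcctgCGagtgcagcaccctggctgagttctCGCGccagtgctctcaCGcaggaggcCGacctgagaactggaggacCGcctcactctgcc
Muc6 block 7 (chr7:141650689-141650896, minus strand): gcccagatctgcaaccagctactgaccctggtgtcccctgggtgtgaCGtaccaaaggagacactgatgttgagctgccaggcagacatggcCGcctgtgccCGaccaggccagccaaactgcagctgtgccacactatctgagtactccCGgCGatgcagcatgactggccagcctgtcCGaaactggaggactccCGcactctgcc

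Only Muc5b had a peak at its start. The peak at chr7:141838836-141839328 (score 58.65) spanned the start at chr7:141839070, with its midpoint 12 bp downstream, and covered the whole first exon. A peak overlapped the 1000 bp on either side of the gene start in 1 of 7 members, while 24.7% of all coding genes had such a peak. The coding part of that first exon of Muc5b, block 1, is 70 bp long with a GC content of 64.3%, the highest of its 49 coding blocks. Exons made up 23.7% of the bases of the peak at the start. A further peak (chr7:141835878-141836402, score 57.96) lay 2.93 kb upstream of the start by its midpoint.

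Muc4, a membrane mucin of airway and gut epithelium, had 1 peak in its 46.5 kb. It lay at chr16:32765633-32766249 with a score of 52.55, 30.1 kb from the start, and covered blocks 11 and 12 of 27 in full. Their GC contents were 63.3% and 60.7%, the first being the highest of the gene and shared with a block that had no peak. Exons made up 48.1% of the bases of the peak. Coding sequence of Muc4 was 2.80% covered and introns 0.921%. The overlapping membrane mucin gene Muc20 had 0 peaks.

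Over the 6 genes with coding sequence, short coding blocks with peaks were those of high GC content. Of 283 coding blocks under 500 bp, 8 had a peak, beside 5.14% of 198632 such blocks over all coding genes. Those 8 were 6 of the 22 with 60% or more and 2 of the 72 between 55% and 60%. At 60% or more, 21.6% of such blocks over all coding genes had a peak. Between 55% and 60% the share over all coding genes was 7.70%. None of the 92 mucin blocks under 50% GC and none of the 97 between 50% and 55% had one. Over all coding genes these shares were also low, with 0.529% under 45%, 0.763% between 45% and 50% and 2.24% between 50% and 55%. In Muc2, Muc5b and Muc6 the block with the highest GC content was under a peak. So was block 11 of Muc4, which shared the highest value with a block without a peak. In Muc5ac the highest, with 71.9%, was not under a peak, but that block was only 32 bp long.

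**Figure D3:**
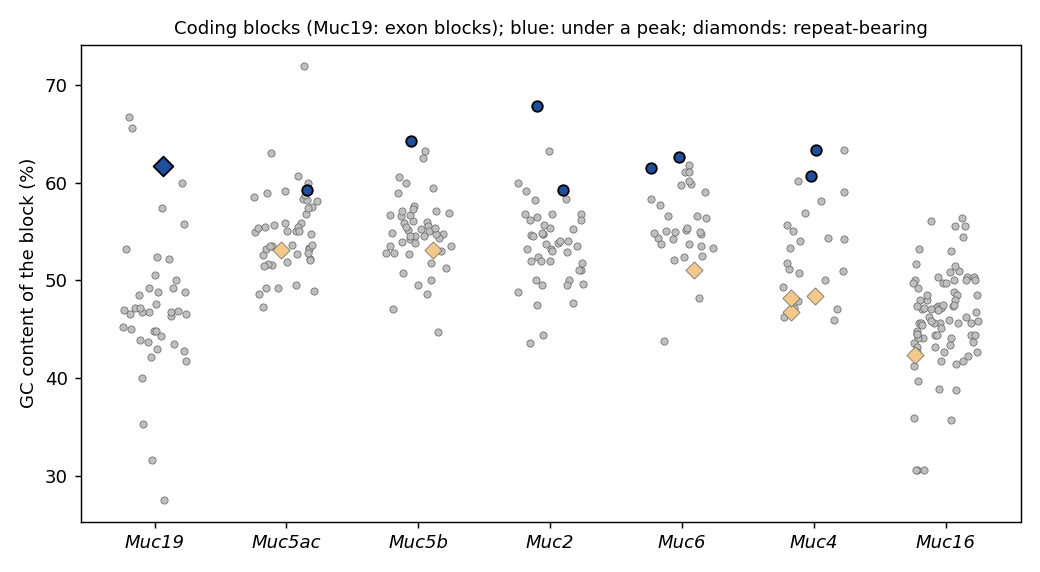
GC content in percent (y axis) of every coding block of each gene, or of every exon block for Muc19, with 1 point per block, spread sideways only for legibility. Blue points are under a peak and diamonds are repeat-bearing; Muc16, with no block above 56.4%, has no blue point.

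All peaks of Muc16 lay outside exons. It is the longest member (179 kb, chr9:18495455-18674530) and had 7 peaks in its introns, each at least 929 bp from any exon. Its exons were 0% covered, its introns 3.45% and its flanks 21.1%. None of its 86 coding blocks had a GC content above 56.4%. Of the 5 flank peaks in the family 3 were its own, and flank peaks were found at 3 of 7 members beside 39.9% of coding genes.

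Peaks of Muc16 gathered at its 3′ end. Within 18.7 kb (chr9:18488845-18507572) there were 6 peaks with scores from 78.59 to 279.13. Of these, 3 lay in the same intron, between coding blocks 82 and 83 of 86, and 3 lay beyond the end of the gene. The strongest lay at chr9:18493003-18494759, 1757 bp wide and 696 bp past the last exon. Within the gene the strongest was at chr9:18506346-18507572 with a score of 148.98, the highest of the family after Muc19. The other 4 peaks were spread over the introns with scores from 50.48 to 71.33. Between the 5′-most peak and the start, 61.7 kb with both of the largest exons held no peak.

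**Figure D4:**
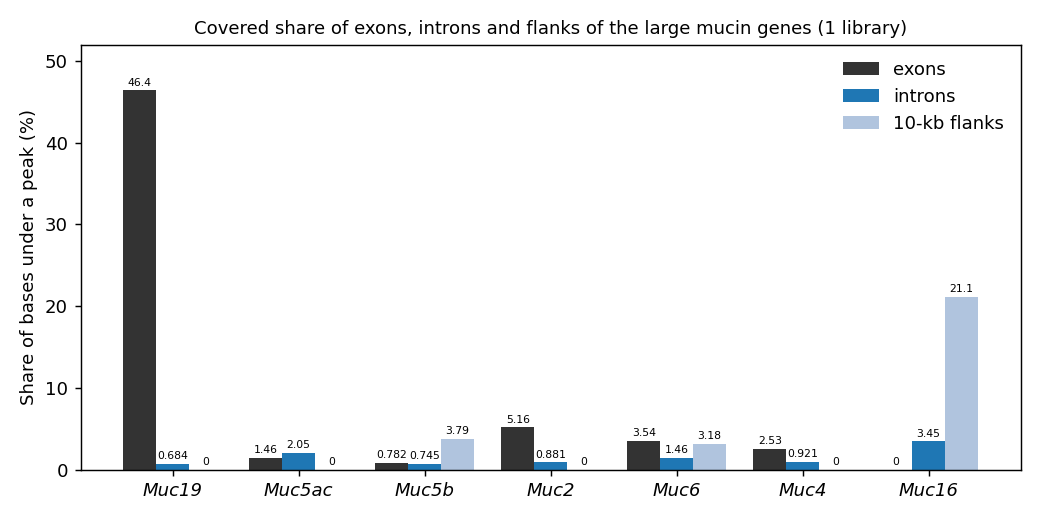
Share of bases under a peak, in percent (y axis), for exons, introns and 10-kb flanks of each of the 7 genes, 1 bar each from 1 library. Exons of Muc19 reach 46.4% and flanks of Muc16 21.1%, while no other bar passes 5.16%.

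Set side by side, the covered share of the gene body ran from 0.761% in Muc5b to 5.01% in Muc19, with Muc16 (2.94%), Muc6 (2.35%), Muc5ac (1.84%), Muc2 (1.36%) and Muc4 (1.33%) between. The median was 1.84%. Among coding genes at least as long as Muc6, 10.5% had a higher share than Muc19 and 61.1% a higher share than Muc5b. The median covered share of coding sequence was 2.16% over 6 genes, beside a median of 0 over all coding genes, and that of introns was 0.921% over 7 genes, beside 0.876% over the coding genes at least as long as Muc6. A peak touched coding sequence in 5 of 6 genes, beside 29.4% of all coding genes. Of the coding genes at least as long as Muc6, 64.7% had no coding sequence under a peak.

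Genes related to the mucins by domain or by pathway were listed with earlier results of these data known, and their counts are given without a test. Of 10 genes that share von Willebrand domains with the gel-forming mucins, 8 had a peak over coding sequence, with a median covered coding share of 9.89%. Over all coding genes 29.4% had such a peak and the median share was 0. Of the coding genes at least as long as Muc6, 64.7% had none, and all 10 but Susd2 were longer than Muc6. The largest shares were those of Susd2 (40.0%), Otog (28.4%), a gene of the inner ear membranes, and Fcgbp (16.3%), which encodes a protein of intestinal mucus. Of 14 other mucin and mucin-like genes only Mcam (11.1%), a cell adhesion gene, had one, and the median share was 0. The membrane mucin genes Muc1 and Muc13 and the oviduct mucin gene Ovgp1 each have 1 repeat-bearing coding block, with GC contents of 54.1%, 54.4% and 46.9%, and had no peak.

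Among 31 genes of enzymes that build or extend the O-linked sugar chains of mucins, 8 had a peak over coding sequence and 12 at the start, beside 29.4% and 24.7% of all coding genes. The median covered coding share of the list was 0. The largest covered coding shares were those of B3gnt3 (97.9%), B3gnt6 (77.7%) and Fut1 (48.7%), which encode 2 sugar transferases of chain extension and core synthesis and a fucosyltransferase. Of 16 goblet cell genes, 6 had a peak over coding sequence, beside 29.4% of all coding genes, and the median covered coding share was 0. The transcription factor genes Foxa1 (100%), Atoh1 (85.8%) and Foxa2 (71.6%) led them.

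The filaggrin-type genes of the skin, whose proteins are also built of repeats, were set beside the mucins. How alike the genes of both groups are in form was not measured. Of their 6 repeat-bearing coding blocks, 4 had a peak, beside 0 of 7 in the mucins and 18.5% of 319 over all coding genes. The difference was not tested, and it depends on how blocks are counted. Counted over exons, Flg2 and Muc4 each had 1 repeat-bearing block in place of 3. Muc19, whose array exon had a peak, is not among the 7 because it has no annotated coding sequence. Peaks were on Flg2 (3 of 3 blocks, GC content 47.2% to 58.4%) and Tchh (1 of 1, 60.7%), and not on the long block of Hrnr (10095 bp) or on Rptn (48.6%). Flg itself, whose annotated coding blocks are not repeat-bearing by this rule, had 70.2% of its coding sequence covered, with a highest score of 482.89. Counted over exons, as for Muc19, Flg had a repeat-bearing block of 14306 bp with 63.9% GC and 87.5% of its 12-mers repeated. That block held 7 peaks and was covered to 65.8%.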

How the data were processed

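H1t chromatin immunoprecipitation from spermatogenic cells gave 1 peak list. The submitters' processing notes name Bowtie 1.1.2 and the build mm10. Peaks are named "MACS_peak" in the list itself, while the version, threshold and any use of the input, like the meaning of the score, are not stated in the labels. The score of each peak is deposited by the authors and served only to describe and rank peaks within the list.

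Peak starts were counted from 1 and compared with GENCODE vM21 (GRCm38), whose assembly is the build of the peaks. Coding sequence and exons were merged over the transcripts of a gene into blocks, and their bases were read from GENCODE transcript sequences. A best shift was searched up to 800 bp. Counterpart blocks had 0.8 to 1.25 times the length and the highest identity in a global alignment. The named genes are all 7 members, the coding gene nearest to a member with a peak on its repeats, neighbouring genes, and at most 3 genes of each list by covered coding share. Muc1, Muc13, Ovgp1, Hrnr and Rptn are named beyond that rule, after their values were seen. Since Muc19 has no coding sequence, its exons stood in for it in that search. Members, lists and rules were chosen with earlier results of these data known. Functions were tested on simulated data. Promoter sequences are RefSeq's (GRCm38.p6), with 4 of 7 members matched (Muc5ac, Muc5b and Muc19 were not). Muc21 was not matched in the annotation. Versions were Python 3.11.15, numpy 2.4.6, pandas 2.3.3, Biopython 1.88 and matplotlib 3.10.9.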

Additional observations from a re-analysis of the deposited data

How the results depend on the processing

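Of 46 alternative values of 7 summary values, 30 stayed within 1.5 times the value given and 16 did not. With scores of at least 100 the 15 peaks over gene bodies fell to 2 (Muc19 and Muc16) and the 5 flank peaks to 3, the median covered shares of gene bodies, coding sequence and introns were each 0, and 0 members kept a start peak. With scores above the list median the gene bodies held 4 peaks, and the 3 medians and the start peaks were likewise 0. Any transcript start in place of the gene start gave 2 members, Muc19 and Muc5b. Flanks of 5000 bp held 3 peaks. Counting the exons of Muc19 as coding gave 1 of 8 repeat-bearing blocks with a peak. Without Muc16 there were 8 peaks over gene bodies and 2 in flanks. These last choices on Muc19 and Muc16 were made after seeing the data. The 0 of 7 repeat-bearing coding blocks stayed at 0 under the 8 other alternatives, with 2 to 7 blocks. Those on score, overlap, a share of 50%, 18-mers and 1000 bp could only remove peaks or blocks. A share of 10% of 12-mers added no block, with 7 as before. The 0 could therefore not change, and these values among the 30 are no measure of its stability. No paired analysis was possible because the list comes from 1 library. Without read depth, replicates or the input, a peak just above the lowest score cannot be told apart from background.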

Other observations

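Start regions were available as 300 bases for 4 members, and none overlapped a peak. All 4 lie within the 1000 bp on either side of gene starts already counted as without a peak, so this is no further result. Muc5b, the only member with a peak at its start, was not among them. The share of all promoters with a peak is not given. GC contents of these start regions were 56.7% in Muc6 and 55.3% in Muc2, with 6 CpG each. They were 46.7% in Muc16 and 43.7% in Muc4, with 1 CpG each. Over 32851 promoters of the same length the medians were 52.7% and 7 CpG.

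Neighbouring genes on either side varied. Tnk2, a kinase gene 52.4 kb from Muc4, had 6 peaks, 1 of them at its start, and was covered to 12.2%. Lrrk2, another kinase gene 22.2 kb before Muc19, had 4 peaks (2.07%, highest score 163.95), and Cntn1, on the other side, had 3. Tollip, 1.73 kb from Muc5b, had 0, as did Smbd1 next to Muc4 and Mbd3l1 and Olfr24 on either side of Muc16. Ap2a2, 0.444 kb from Muc6, held 1 peak (score 120.87), which is also the flank peak of Muc6.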
